A study of Mus musculus with 61 samples.

Results

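RNA of the developing mouse brain was compared with RNA of the liver at mid-gestation (embryonic day E11.5), when the brain is making its early neurons and the liver bud is taking up blood formation. The comparison rests on 8 of the 61 libraries of the study: 2 each of forebrain, midbrain and hindbrain, and 2 of liver. They were chosen by the tissue and stage in the sample labels and not by any measured value. The labels name no strain, sex, genotype or treatment for any of the 4 groups. They also do not say whether a library is 1 embryo or several, or whether replicates came from separate embryos, so p-values measure the spread between libraries, which may be technical. Values are TPM, the abundance of a gene's transcripts scaled for their length and for the library total, and summed to between 999988 and 999995 in each library. Levels of different genes can be compared on this scale. All differences below are brain minus liver on the log2(TPM + 1) scale with their standard error (SE), with the 3 regions weighted equally. This scale understates the change of low genes.

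Brain is formed from ectoderm and the hepatocytes of the liver from endoderm. In the neural tube, dividing progenitors carry Sox2 and Hes5, proneural factors such as Neurog2 push a cell to leave the cycle, and the young neuron then builds microtubules, neurofilaments and a growth cone. In the liver bud, hepatoblasts switch on the hepatic transcription factors and begin to secrete plasma proteins, and blood stem and progenitor cells settle there and make red cells with adult haemoglobin. Circulating red cells at this age come mostly from the yolk sac and carry embryonic haemoglobin.

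Marker genes fitted the tissue labels. Emx2, which patterns the dorsal forebrain, stood at 112 and 143 TPM in forebrain, 21.1 and 24.7 in midbrain, and 2.11 and 1.98 in hindbrain. En2, of the midbrain and hindbrain border, stood at 30.8 and 35.8 TPM in midbrain, 15.9 and 13.8 TPM in hindbrain and 0.03 TPM or less in forebrain and liver. Hoxb3, a hindbrain patterning gene, stood at 82.8 and 90.3 TPM in hindbrain and at 0.07 TPM or less in forebrain and midbrain. The serum albumin gene Alb stood at 2586 and 2868 TPM in liver. All 8 libraries held both Xist (145 to 292 TPM) and the Y-linked Kdm5d (7.40 to 25.6 TPM). Between 14208 and 15081 genes reached 1 TPM in a brain library, against 13778 and 13791 in the liver libraries. TPM keep no read counts, so the depth behind each value is unknown.

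Brain and liver differed widely. Of 18655 genes tested with limma over all 61 libraries, brain was higher for 3896 (20.9%) and lower for 1612 (8.64%), so 29.5% were called. A call needed a Benjamini-Hochberg adjusted p under 0.05 and a difference of at least 1 (2-fold). Among protein-coding genes 3563 were higher (22.7%) and 1493 lower (9.49%). The median of all genes lay at 0.29, and part of the excess of higher calls moved with the scaling. Median-of-ratios scaling put that median at 0.03 and the calls at 2603 higher and 2299 lower, and quantile normalization gave 0.02, 2500 and 2362. For 13257 genes (71.1%) the 6 brain values and the 2 liver values did not overlap, so absence of overlap alone is common here. A count of list members below is read against these shares.

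**Figure D1:**
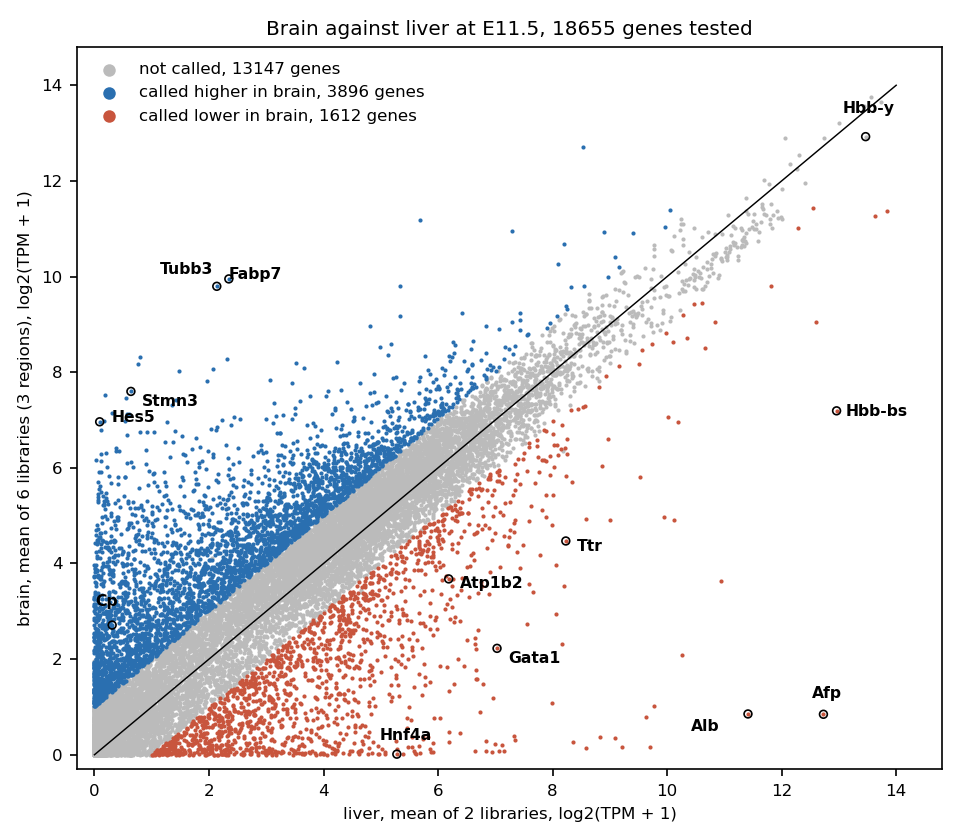
Mean log2(TPM + 1) of the 2 liver libraries (x axis) and of the 6 brain libraries (y axis), 1 point for each of 18655 genes tested, with genes called higher in brain in blue (3896), lower in red (1612) and the others in grey. Tubb3 and Fabp7 lie far above the line of equality, Afp and Alb far below it, and Hbb-y close to it.

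The genes that set brain furthest above liver were those of neural progenitors and young neurons. Fabp7, a lipid-binding protein of radial glia, stood at 641 and 584 TPM in forebrain, 988 and 960 in midbrain, 1224 and 1127 in hindbrain, and 3.7 and 3.11 in liver. All brain libraries lay far above both liver libraries, and the difference of 7.66 ± 0.14 (SE, n = 6 and 2 libraries) was the largest positive one of the 10 genes named at the top of the ranking (limma, adjusted p = 1.48e-31). Tubb3, the neuronal beta-tubulin, followed. It stood at 848 and 724 TPM in forebrain, 1053 and 986 in midbrain, 1257 and 1163 in hindbrain, and 4.14 and 4.03 in liver (7.60 ± 0.14). The other leading genes were Stmn3 (6.96) and Stmn4 (6.52), regulators of microtubule assembly, Ina (6.91), a neuronal intermediate filament, Hes5 (6.87), an effector of Notch signalling, Zic1 (6.83), a neural transcription factor, Fez1 (6.55), of axon outgrowth, Igfbpl1 (6.43) and Pax6 (6.17). In bulk tissue, a lower number of cells of a type and less RNA in each cell cannot be told apart.

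All 16 neural progenitor genes were called higher in brain, with a median of 4.78 against 0.29 for all genes. Hes5 values were 129 and 103 TPM in forebrain, 181 and 184 in midbrain, 88.6 and 91.7 in hindbrain, and 0.06 and 0.07 in liver. Pax6, which keeps dorsal progenitors dividing and patterns them, stood at 153 and 162 TPM in forebrain, 69.6 and 67.6 in midbrain, 41.5 and 41.3 in hindbrain, and 0.11 and 0.05 in liver. Midbrain was highest for Hes5 and forebrain for Pax6, with no overlap between regions for either gene. The smallest difference in this list was that of the adhesion gene Cdh2 (1.66), which liver libraries also held at 42.6 and 46.6 TPM. Hes5 lies on chromosome 4. The 250 bases before its start are rich in CG, the dinucleotide that DNA methylation acts on. They are shown for contrast with those of Alb and Afp further on. The sequence is RefSeq's, build GRCm38.p6, chr4:154960673-154960922, plus strand, with each of its 32 CG in capitals.
Hes5: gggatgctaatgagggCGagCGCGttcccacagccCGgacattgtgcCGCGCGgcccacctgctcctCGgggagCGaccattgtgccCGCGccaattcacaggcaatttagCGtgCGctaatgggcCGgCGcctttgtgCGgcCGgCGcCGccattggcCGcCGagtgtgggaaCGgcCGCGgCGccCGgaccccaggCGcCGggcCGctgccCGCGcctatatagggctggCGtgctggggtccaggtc

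Genes of neurogenic commitment were called higher in brain in 13 of 13 cases, with a median of 4.35. The proneural factor genes Neurog2 (5.84) and Neurog1 (4.76) were among the leading members, with Dll3 (5.05), which tunes Notch signalling between neighbouring cells. Neurog2 stood at 77.5 and 75.6 TPM in forebrain, 68.6 and 67.9 in midbrain, 39.5 and 41.1 in hindbrain, and 0.09 and 0.03 in liver. Eomes, of intermediate progenitors of the cortex, separated the regions instead, with 46.5 and 55.4 TPM in forebrain, 1.39 and 2.72 in midbrain, and 0.12 TPM or less in hindbrain and liver. Of this list 11 of 13 genes had a promoter in the RefSeq table, searched from 250 bases before to 50 after the start. CG counts there had a median of 19.5 and 10 of the 11 genes held 10 or more, against a median of 7 and 44.1% of genes over all 27025 genes of the table. Over the tested genes found in the table, which are 69% of those tested, the median was 19 and 76.2% held 10 or more, so the CG count of this list was close to that of tested genes. CAGCTG, a palindromic E-box of the kind proneural factors bind, was found on either strand in 5 of 11 genes (45.5%), against 18.3% of the table and 18.7% of the tested genes in it. This share was not particular to the list. Over the other lists it ran from 0% (among them neural progenitor genes) to 50% (splicing and RNA-binding genes), with Polycomb genes at 40%. A match in these letters is a description of the window and not a shown binding site.

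Young neuron genes were called higher in brain in 20 of 20 cases, with the largest median of the neural lists, 5.53. Their summed level was 2288 and 2401 TPM in forebrain, 3817 and 3701 in midbrain, 5386 and 5204 in hindbrain, and 68.6 and 72.3 in liver. The sum thus stepped up from forebrain to hindbrain without overlap, and differences among regions were called for 13 of the 20 genes, against 6.91% of all genes (1289). Ina stood at 80.4 and 95.3 TPM in forebrain, 178 and 186 in midbrain, and 328 and 343 in hindbrain. Nefl, the light neurofilament subunit of large axons, had the widest range of the list. It stood at 13.6 and 14.4 TPM in forebrain, 101 and 103 in midbrain, 278 and 264 in hindbrain, and 1.52 and 1.45 in liver, a range of region means of 4.18 (limma F test, adjusted p = 1.17e-20). Nefm (3.62), Nhlh2 (2.12), Dcx (1.70), Gap43 (1.67) and Stmn2 (1.66) were lowest in forebrain and highest in hindbrain too. The progenitor list did not show this order. Its sums were 2113 and 2206 TPM in forebrain, 2402 and 2472 in midbrain, and 2327 and 2299 in hindbrain.

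Forebrain replicate 1 stood apart in long transcripts. Among protein-coding genes whose longest annotated transcript has 8000 bases or more (891 genes), the median of replicate 1 minus replicate 2 was -0.499 in forebrain, against -0.105 in midbrain, -0.051 in hindbrain and -0.097 in liver. In genes under 2000 bases (3427 genes) it was 0.07 in forebrain. Dcx, of migrating neurons, stood at 50.2 TPM in forebrain replicate 1 and 93.0 in replicate 2, Map2 at 152 and 232, and the axon guidance receptor gene Dcc at 11.2 and 26.5. Both forebrain values of each of these genes lay below all midbrain and hindbrain values. Without replicate 1 the genes called higher in forebrain than in liver numbered 3750 in place of 3271. The part of this library in the other results was not tested beyond leaving it out.

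**Figure D2:**
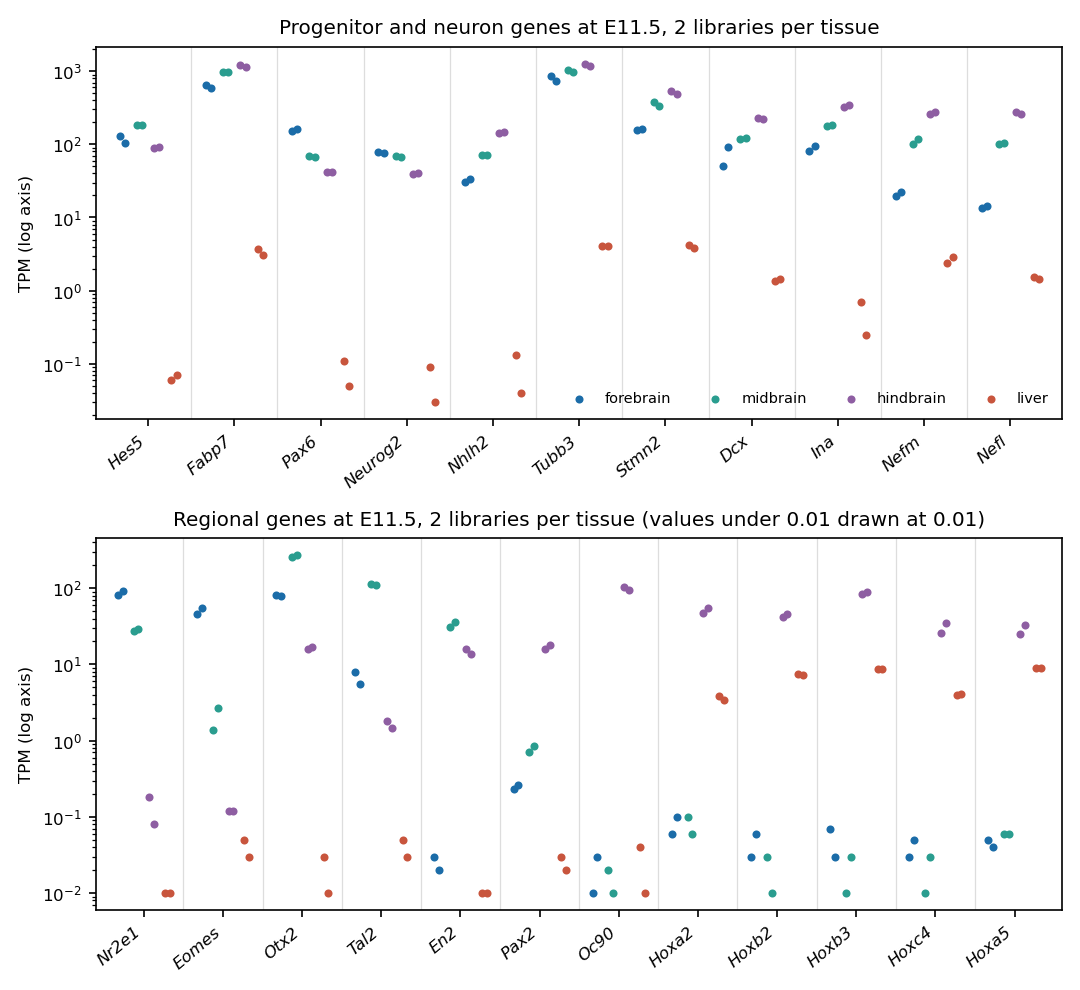
TPM on a log axis in each of the 8 libraries, 2 points per tissue, for progenitor and neuron genes (top) and regional genes (bottom), with values under 0.01 drawn at 0.01. Nefl and Nefm climb from forebrain to hindbrain, and the Hox genes are high in hindbrain, intermediate in liver and near 0 in forebrain and midbrain.

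Transmitter and synapse genes were called higher in brain in 15 of 17 cases, and in 12 under median-of-ratios scaling. The median of 3.06 was below that of the young neuron genes. Slc17a6, a vesicular glutamate transporter, stood at 17.8 and 21.6 TPM in forebrain, 28.4 and 27.2 in midbrain, 30.8 and 28.3 in hindbrain, and 0.08 and 0.02 in liver (4.65). Snap25, of vesicle fusion, differed by 4.56, the GABA-synthesising enzyme gene Gad1 by 4.21 and the glutamate receptor subunit gene Gria2 by 4.17. The uncalled members were the cholinergic genes Slc18a3 (0.82) and Chat (0.42). Both were low outside hindbrain, where Slc18a3 stood at 3.33 and 3.37 TPM and Chat at 1.17 and 1.43 TPM.

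Axon guidance genes were called higher in brain in 15 of 18 cases. Robo3, a receptor of commissural axons, led. It stood at 26.9 and 25.8 TPM in forebrain, 67.3 and 71.3 in midbrain, 167 and 185 in hindbrain, and 0.45 and 0.67 in liver (5.49 ± 0.24). Cntn2, an adhesion protein of growing axons, differed by 5.40, Dcc by 4.72 and Nrcam by 4.34. Robo2 stood at 15.8 to 26.5 TPM in brain and at 21 and 21.7 TPM in liver (-0.10). Nrp1, a receptor for semaphorins and vascular growth factor, stood at 10.1 to 19.1 TPM in brain and at 25.4 and 27.0 TPM in liver (-0.89), short of the call. Under median-of-ratios scaling the list had 12 higher and 1 lower.

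Among 15 splicing and RNA-binding genes brain was higher for 10 and lower for 2. Celf3 (5.93), Elavl2 (5.31), Srrm4 (4.33) and Celf4 (3.85), all regulators of neuronal RNA, led. Srrm4, which drives inclusion of neuronal microexons, stood at 12.4 to 30.3 TPM in brain and at 0.11 and 0.10 TPM in liver. Ptbp1, which represses neuronal exons, was abundant on both sides, with 332 to 406 TPM in brain and 437 and 512 TPM in liver (-0.36, not called). The epithelial splicing factor genes Esrp2 (-2.14) and Rbm47 (-1.04) were the lower members, named after their values were seen.

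Signalling centre genes, which encode the secreted signals that pattern the neural tube, were called higher in brain in 12 of 14 cases. The count was 10 under median-of-ratios scaling and under quantile normalization. Fgf15 stood at 62.1 and 48.7 TPM in forebrain, 63.0 and 67.0 in midbrain, 39.2 and 37.0 in hindbrain, and 0.04 and 0.06 in liver (5.64). Wnt7b (4.70) and Wnt7a (3.53) were held by every region. Wnt8b (3.11) was not. It stood at 36.4 and 49.3 TPM in forebrain, 11.4 in both midbrain libraries, and 0.23 and 0.21 in hindbrain. Bmp4 was not called (0.20 ± 0.17) and changed sign under other scalings.

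In the liver libraries the genes furthest above brain encoded plasma proteins. Afp, alpha-fetoprotein (ENSMUSG00000054932.3), stood at 6497 and 7097 TPM in liver. In brain it was 4.10 and 0.01 TPM in forebrain, 0.06 and 0.04 in midbrain, and 4.50 and 0.08 in hindbrain, a difference of -11.88 ± 0.76 (limma, adjusted p = 3.08e-16). Alb, serum albumin (ENSMUSG00000029368.9), stood at 8.82 and 0.05 TPM in forebrain, 0.11 and 0.10 in midbrain, 1.55 and 0.08 in hindbrain, and 2586 and 2868 in liver (-10.56 ± 0.84). The first replicates of forebrain and hindbrain thus held traces of both that the other 4 brain libraries did not. Ambp, Apoa1 and the serpin gene Serpina1b, whose near-identical copies make its own level uncertain, were also highest in brain in these replicates, at 0.33 to 1.82 TPM. Leaving out both libraries, a choice made after seeing these values, gave 4102 genes higher and 1609 lower. Most of that change came with forebrain replicate 1, the library with low long transcripts. Without it alone 4073 were higher and 1608 lower, and without hindbrain replicate 1 alone 3916 and 1617. The next lowest genes were Serpina6 (-9.54), which carries corticosteroids, Ambp (-9.05), Apoa1 (-8.84), Rbp4 (-8.74), the retinol carrier, Itih2 (-8.46), Serpinf2 (-8.43), an inhibitor of plasmin, and Apoa2 (-8.17).

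Alb and Afp are neighbours on mouse chromosome 5. The 250 bases before each start are shown because GTTAAT, a core of the motif of the hepatic factor HNF1, lies in both, 32 and 105 bases before the start. Sequences are RefSeq's, build GRCm38.p6, both on the plus strand, at chr5:90460620-90460869 for Alb and chr5:90490464-90490713 for Afp. Capitals mark GTTAAT and, in Afp, the TATA box TATAAA.
Alb: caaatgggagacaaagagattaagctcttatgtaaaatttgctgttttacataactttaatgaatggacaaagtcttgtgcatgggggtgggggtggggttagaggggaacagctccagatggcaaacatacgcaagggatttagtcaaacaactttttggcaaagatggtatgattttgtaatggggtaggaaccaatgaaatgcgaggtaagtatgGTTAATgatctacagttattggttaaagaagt
Afp: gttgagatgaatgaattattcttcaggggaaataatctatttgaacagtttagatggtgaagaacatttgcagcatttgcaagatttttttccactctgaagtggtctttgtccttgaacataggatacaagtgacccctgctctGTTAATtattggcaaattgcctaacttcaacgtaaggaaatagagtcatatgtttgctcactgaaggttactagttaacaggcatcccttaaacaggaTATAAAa
These windows hold 2 CG (Alb) and 1 CG (Afp), against 32 in that of Hes5. Of the 20 plasma protein genes 16 had a promoter in the table, with a median of 3.5 CG, and 1 of the 16 held 10 or more. Over the tested genes in the table the median was 19 and 76.2% held 10 or more. GTTAAT was found on either strand in 8 of the 16 (50%), against 8.24% of the table and 5.86% of the tested genes in it. These were Afp, Alb, Cp, F2, Fga, Fgb, Gc and Vtn, of which Cp was called higher in brain. Over the other lists the share ran from 0% to 33.3%. The highest were hepatic transcription factor genes and liver mesothelium and stellate genes, both at 33.3%. Where a gene has several starts, the median CG count was taken and a motif at any start was counted.

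Of the 20 plasma protein genes 19 were called lower in brain and 1 higher, with a median of -6.83. The exception was Cp, ceruloplasmin, the copper-carrying ferroxidase. It stood at 3.12 and 3.37 TPM in forebrain, 6.79 and 7.80 in midbrain, 6.93 and 7.06 in hindbrain, and 0.08 and 0.42 in liver (2.4 ± 0.18). All 6 brain values lay above both liver values. Transthyretin, Ttr, carries thyroid hormone and is made by liver and choroid plexus. It stood at 17.6 and 13.3 TPM in forebrain, 1.81 and 1.17 in midbrain, 267 and 271 in hindbrain, and 294 and 305 in liver. Hindbrain thus came within 0.15 of liver on the log2 scale, while the average over regions was -3.76 and the range of region means 6.78. The liver of this age held some plasma protein genes at low levels. Apoh stood at 10.4 and 11.1 TPM, Gc, the vitamin D carrier, at 11.8 and 14.2 TPM, and Itih4 at 5.02 and 6.07 TPM.

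Of 13 apolipoprotein and lipid transport genes 12 were lower in brain, with a median of -4.32. Apoa2 stood at 1224 and 1222 TPM in liver and at 2.25 to 4.54 TPM in brain. Apom (-6.92) and Apob (-6.91), the latter the backbone of liver lipoproteins, followed. Apoa4 was at 0.11 TPM or less in all 8 libraries and was not called.

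Among 18 hepatic transcription factor genes 12 were lower in brain and 1 was higher. Gata4, which the liver bud shares with heart and gut, stood at 53.9 and 62.6 TPM in liver and at 0.01 to 0.12 TPM in brain (-5.83 ± 0.09). Hnf4a, a master regulator of hepatocytes, stood at 36.1 and 39.7 TPM in liver and at 0.02 TPM or less in brain (-5.27). Gata6 (-3.97) and Foxa3 (-3.64) followed. Some other members of the list were also held by brain regions. Onecut1 stood at 0.80 and 2.51 TPM in forebrain, 13 and 14.3 in midbrain, 11.2 and 11.6 in hindbrain, and 2.15 and 3.07 in liver (1.11). This call was lost under median-of-ratios scaling and under quantile normalization. Foxa2, of the floor plate and of endoderm, stood at 0.51 and 0.20 TPM in forebrain, 14.3 and 15.1 in midbrain, 4.88 and 4.09 in hindbrain, and 6.61 and 6.72 in liver. Prox1 stood at 4.13 to 10.2 TPM in brain and at 9.79 and 10.1 TPM in liver.

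Mature hepatocyte enzymes were mostly low in both tissues. Of 18 genes 6 were called lower in brain, with 12 not called. Otc, of the urea cycle, stood at 10.7 and 10.3 TPM in liver and at 0.05 TPM or less in brain (-3.50). Ass1, of the urea cycle (-2.56), and Hpd, of tyrosine breakdown (-2.08), were called as well. The urea cycle gene Cps1 was at 0.17 TPM or less in all 8 libraries, the gluconeogenic genes G6pc and Pck1 at 0.31 TPM or less, and the bile acid enzyme gene Cyp7a1 at 0.09 TPM or less.

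**Figure D3:**
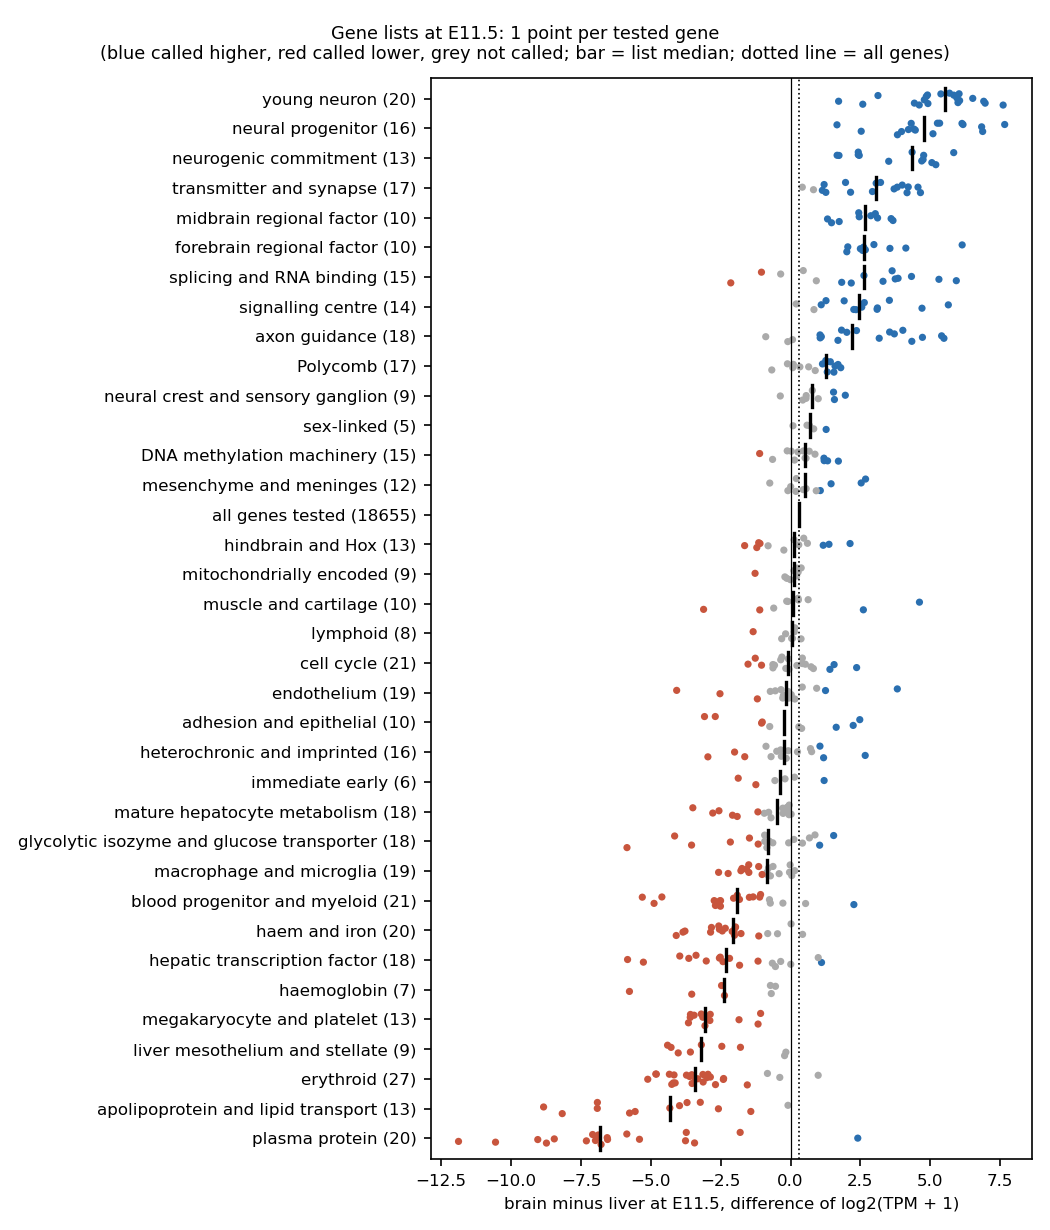
Brain minus liver at E11.5 on the log2(TPM + 1) scale (x axis) for each tested member of 35 gene lists (y axis, number of tested genes in brackets), blue where called higher in brain, red lower and grey not called, with a bar at each list's median. The young neuron list lies highest (median 5.53) and the plasma protein list lowest (median -6.83), and the dotted line marks the median of all genes at 0.29.

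Embryonic and adult globin genes behaved differently between the tissues. The embryonic beta-globin gene Hbb-y stood at 8479 and 8592 TPM in forebrain, 8433 and 7765 in midbrain, 7135 and 6507 in hindbrain, and 12064 and 10614 in liver. All brain values were below both liver values, but the difference of -0.54 ± 0.34 was not called (limma, adjusted p = 0.153). The SE and p draw on the spread between replicates in all 61 libraries, not at E11.5 alone. A difference under 1 is also not called whatever its p. In limma Hbb-bh1 (-0.69, adjusted p = 0.066) and Hba-x (-0.72, adjusted p = 0.0799), the other embryonic globin genes, were not called either. Under median-of-ratios scaling both passed, at -1.09 and -1.12. The adult gene Hbb-bs stood at 200 and 146 TPM in forebrain, 159 and 131 in midbrain, 142 and 108 in hindbrain, and 7162 and 8851 in liver (-5.77 ± 0.28, limma, adjusted p = 1.41e-19). Hbb-bt (-3.54), Hba-a1 (-2.47) and Hba-a2 (-2.37) were called lower too. Hbb-bs and Hbb-bt, and Hba-a1 and Hba-a2, are near-identical copies, so the split of reads within each pair is uncertain and sums are firmer.

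Summed, adult beta-globins made up 7.27% and 6.06% of all beta-globin TPM in forebrain, 6.49% and 5.94% in midbrain, 6.61% and 5.84% in hindbrain, and 45.0% and 52.5% in liver. Liver libraries lay far above all brain libraries, which differed little among themselves. Adult alpha-globins made up 67.4% to 69.5% of alpha-globin TPM in brain and 86.3% and 88.6% in liver. Globins as a whole took 1.49% to 2.05% of all TPM in brain and 5.81% and 6.30% in liver. Among the brain libraries those of hindbrain held the least globin. The 250 bases before the starts of 1 adult and 1 embryonic beta-globin gene are shown because these genes separate the tissues and lie in 1 cluster on chromosome 7. Sequences are RefSeq's, build GRCm38.p6, minus strand, at chr7:103827929-103828178 for Hbb-bs and chr7:103853208-103853457 for Hbb-y. Capitals mark AGATAA, a core of the motif of GATA factors, which lies 210 bases before the Hbb-bs start. It occurs on either strand in 12.7% of the table and in 8.53% of the tested genes in it.
Hbb-bs: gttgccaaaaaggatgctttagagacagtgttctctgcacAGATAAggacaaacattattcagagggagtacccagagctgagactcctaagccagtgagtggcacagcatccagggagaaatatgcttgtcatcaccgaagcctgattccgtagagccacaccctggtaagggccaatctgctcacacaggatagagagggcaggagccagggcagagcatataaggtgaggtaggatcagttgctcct
Hbb-y: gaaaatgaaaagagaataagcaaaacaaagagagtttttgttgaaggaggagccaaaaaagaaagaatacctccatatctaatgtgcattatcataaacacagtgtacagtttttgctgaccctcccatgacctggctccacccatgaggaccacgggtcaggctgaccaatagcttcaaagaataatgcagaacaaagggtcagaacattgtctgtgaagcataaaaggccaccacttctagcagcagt
The letters searched were not found in the Hbb-y window. Across the 6 haemoglobin genes matched in the table, CG counts ranged from 1 to 4. AGATAA was found in 1 of these 6, Hbb-bs. The adult genes Hbb-bt, Hba-a1 and Hba-a2 did not hold it, so it was not a shared trait of the adult globin genes.

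Of 27 tested erythroid genes 24 were lower in brain, with a median of -3.42. Gata1, the master regulator of red cell formation, stood at 3.66 and 4.05 TPM in forebrain, 3.94 and 3.67 in midbrain, 3.64 and 3.14 in hindbrain, and 124 and 136 in liver (-4.80). Klf1, which activates adult beta-globin, stood at 5.01 to 6.49 TPM in brain and at 183 and 192 TPM in liver (-4.82). Gfi1b (-5.11), a repressor needed for red cell maturation, and Epor (-4.34), the erythropoietin receptor, led with them. The anion exchanger gene Slc4a1 of the red cell membrane differed less. It stood at 53.5 and 72.8 TPM in forebrain, 60.3 and 55.8 in midbrain, 50.8 and 46.0 in hindbrain, and 250 and 363 in liver (-2.41). Epb41 (0.99) and Bcl11a (-0.39), which brain cells also use, were not called. Region means of Gata1, Klf1 and Epor differed by 0.28 or less among the brain regions.

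Haem and iron genes were lower in brain in 16 of 20 cases. Cpox, a haem synthesis enzyme, stood at 13.6 to 17.3 TPM in brain and at 259 and 276 TPM in liver (-4.09). Steap3 (-3.85) and Tfr2 (-3.78), of iron uptake, and Hmox1 (-2.86), which degrades haem, followed. Alas1, the first haem enzyme of cells other than red cells, stood at 42.7 to 48.9 TPM in brain and at 29.6 and 35.8 TPM in liver (0.43), without overlap but short of the call. All 13 megakaryocyte and platelet genes were lower in brain. Pf4, a platelet chemokine, stood at 26.0 to 34.6 TPM in brain and at 387 and 379 TPM in liver (-3.66), and Itga2b (-3.59) and Gp9 (-3.58) were close to it.

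Of 21 blood progenitor and myeloid genes 16 were lower in brain and 1 was higher. Mpo, the neutrophil peroxidase, stood at 1.40 to 2.26 TPM in brain and at 102 and 117 TPM in liver (-5.31), with S100a9 (-4.89), S100a8 (-4.61) and Prtn3 (-2.73) next to it. Mecom was the higher member (2.26), at 11.7 to 39.9 TPM in brain and 4.52 and 4.41 TPM in liver. Macrophage and microglia genes were lower in 9 of 19 cases, and in 12 and 14 under median-of-ratios and quantile scaling. Timd4 (-2.58) and Marco (-2.23), of liver macrophages, led, with Fcer1g (-1.78) and Tyrobp (-1.74). The microglial gene P2ry12 stood at 1 to 2.32 TPM in brain and at 1.45 and 1.51 TPM in liver. Lymphoid genes were near 0 throughout. Cd79b, of B cells, was the 1 called member of 8 (-1.34), at 0.66 to 1.16 TPM in brain and 3.84 and 3.96 TPM in liver.

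**Figure D4:**
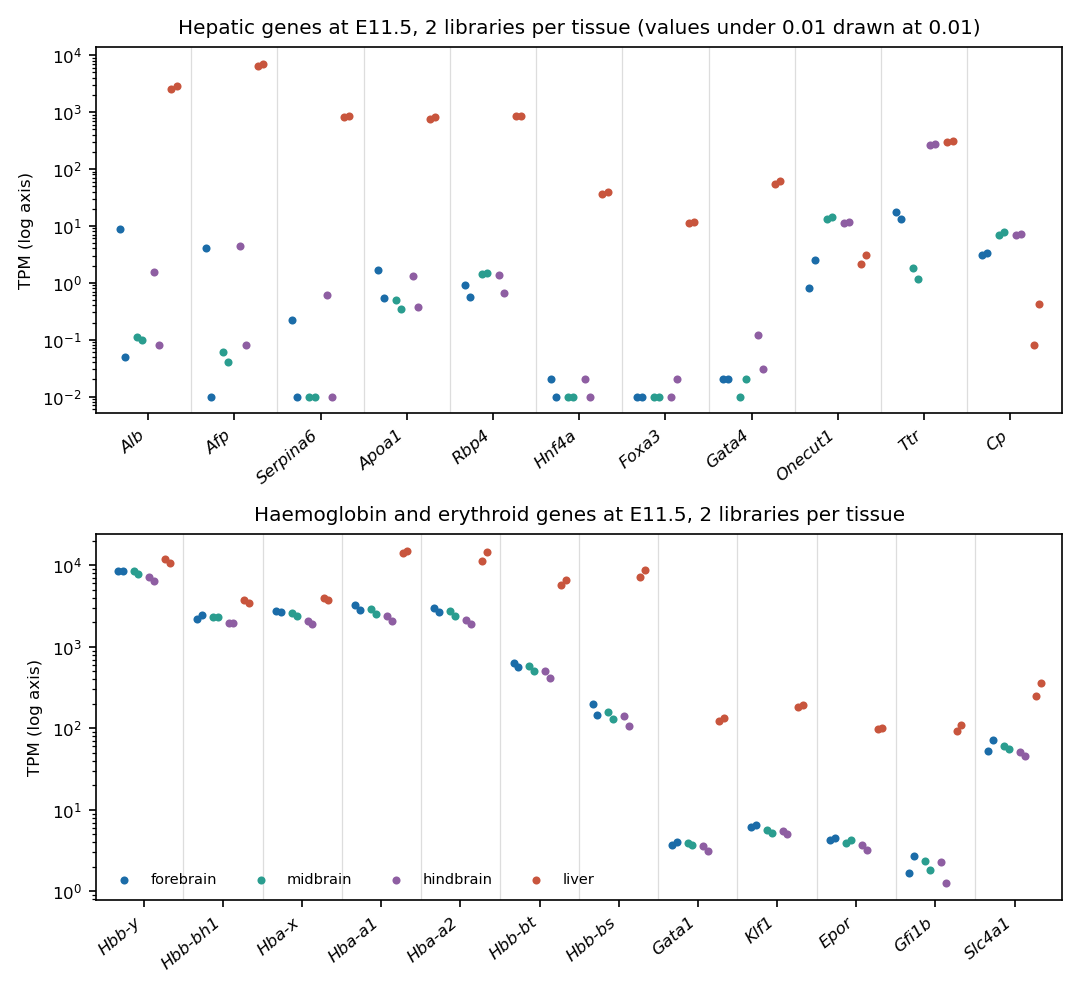
TPM on a log axis in each of the 8 libraries, 2 points per tissue, for hepatic genes (top, with values under 0.01 drawn at 0.01) and for haemoglobin and erythroid genes (bottom). Alb and Afp lie above 2500 TPM in liver with traces in the first replicates of forebrain and hindbrain, Ttr in hindbrain is close to its liver level, and Hbb-y separates the tissues far less than Hbb-bs does.

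Of 19 endothelial genes 2 were higher and 3 lower in brain, a share close to the 29.5% over all genes. The general marker Pecam1 was not called, at 19.5 to 25.0 TPM in brain and 20.4 and 23.2 TPM in liver (0.02 ± 0.09). Mfsd2a, a lipid transporter of brain vessels, stood at 18.8 to 24.6 TPM in brain and at 0.65 and 0.63 TPM in liver (3.82), and Slco1c1, a thyroid hormone transporter, differed by 1.25. Stab2, a scavenger receptor of liver sinusoids, stood at 0.10 to 0.17 TPM in brain and at 16.1 and 20.2 TPM in liver (-4.08), and Lyve1 differed by -2.53. Egfl7 was the third lower member (-1.19).

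Of 12 mesenchyme and meninges genes 4 were higher and 0 lower in brain, a share close to the 29.5% called over all genes. Median-of-ratios scaling gave 3 higher and 1 lower, and quantile normalization 2 and 1. The higher ones were Prrx1 (2.68), Foxc1 (2.52), Tbx18 (1.45) and Alx1 (1.06). The collagens Col3a1 (0.45) and Col1a2 (0.21) were not called. Alx1, of craniofacial mesenchyme, stood at 12.52 and 16.3 TPM in forebrain and at 0.91 to 3.05 TPM elsewhere. Of 9 liver mesothelium and stellate genes 7 were lower in brain, led by Upk3b (-4.40), Hand2 (-4.28), Wt1 (-4.02) and Foxf1 (-3.59). Wt1 stood at 17.1 and 18.9 TPM in liver and at 0.02 to 0.48 TPM in brain.

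Genes of cartilage, muscle and neural crest mark tissue next to the brain. Of 10 muscle and cartilage genes 2 were higher and 2 lower in brain, against 20.9% and 8.64% of all genes, and 6 were not called. The median was 0.08. Col2a1, of cartilage and notochord, was higher in brain (4.61), at 108 to 178 TPM against 4.00 and 4.91 TPM, and Cnmd followed (2.60). The muscle gene Actc1 stood at 0.43 to 1.48 TPM in forebrain and midbrain, 26.7 and 36.4 TPM in hindbrain, and 55.3 and 29.5 TPM in liver. On the average over regions Actc1 was called lower in brain (-3.11), while hindbrain alone was not called (-0.36). Sox10, of neural crest and glia, stood at 13.8 and 16.54 TPM in hindbrain and at 0.72 to 1.23 TPM in the other 6 libraries. Of 9 crest and sensory genes 3 were higher in brain, among them Prph (1.57) and Tlx3 (1.54). The summed muscle and cartilage list was 112 and 121 TPM in forebrain, 125 and 140 in midbrain, 219 and 268 in hindbrain, and 67.9 and 43.1 in liver. Its part in the region differences was not tested.

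Of 21 cell cycle genes 3 were higher and 3 lower in brain, a share close to the 29.5% over all genes, and the median was -0.08. The replication clamp gene Pcna stood at 408 to 621 TPM in brain and at 551 and 542 TPM in liver (-0.08), and Mki67 at 129 to 217 and at 197 and 216 TPM (-0.35). The D and E cyclins separated the tissues. Ccnd2 (2.36), Ccnd1 (1.56) and the inhibitor gene Cdkn1b (1.41) were higher in brain. Ccne1 (-1.52) and, named after their values were seen, Ccnd3 (-1.26) and Cdk6 (-1.04) were lower. Ccnd1 stood at 146 to 264 TPM in brain and at 69.0 and 76.5 TPM in liver.

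The title of the study names the methylome, so the genes of DNA methylation were listed as well. Brain was higher for 4 of the 15 tested and lower for 1, near the shares of 20.9% and 8.64% over all genes, and the counts were 1 higher and 2 lower under median-of-ratios scaling. Tet1, which oxidises 5-methylcytosine, stood at 4.30 and 10.4 TPM in forebrain, 8.79 and 10.1 in midbrain, 11 and 10.9 in hindbrain, and 1.90 and 2.16 in liver (1.71 ± 0.14). Its lowest brain value was that of forebrain replicate 1, the library with low long transcripts. Tdg (1.32), which excises oxidised bases, and Tet2 (1.2) were also higher, and the reader gene Mbd2 was lower (-1.11). The maintenance methyltransferase gene Dnmt1 stood at 98.1 to 152 TPM in brain and at 103 and 130 TPM in liver (0.02 ± 0.09) and changed sign under other scalings. Its partner Uhrf1 stood at 0.14 with the same change of sign under median-of-ratios scaling, and Uhrf2 at 0.67. The de novo enzyme genes Dnmt3a (0.52) and Dnmt3b (-0.65), and Tet3 (0.87), Mbd4 (0.55), Hells (0.46), Mbd3 (0.26, negative under median-of-ratios scaling) and Mbd1 (-0.12), were not called.

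Polycomb genes, whose complexes keep developmental regulators silent, were called higher in brain in 10 of 17 cases. The count was 5 under median-of-ratios scaling and 7 higher with 1 lower under quantile normalization. Cbx2 (1.79), Phc1 (1.70), Bmi1 (1.59) and Phc2 (1.55) led, all of them subunits of Polycomb repressive complex 1. Cbx2 stood at 50.3 to 75.3 TPM in brain and at 16.1 and 18.4 TPM in liver. Suz12, a core subunit of complex 2, stood at 50.2 to 70.7 TPM and at 62.4 and 57.9 TPM (-0.11).

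Among 16 heterochronic and imprinted genes 3 were higher and 3 lower in brain, against 20.9% and 8.64% of all genes. Under median-of-ratios scaling 1 was higher and 5 were lower. Ndn, which restrains division of neurons, led the higher ones (2.67), at 197 to 293 TPM against 36.4 and 35.7 TPM. The growth regulators Dlk1 (-2.96), H19 (-2.0) and Igf2 (-1.64) were the lower ones. Igf2 stood at 308 and 326 TPM in forebrain, 415 and 403 in midbrain, 541 and 584 in hindbrain, and 1291 and 1320 in liver. Meg3 (-0.36) and Mest (0.71), both abundant on each side, were not called.

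Of 18 genes for glycolytic isozymes and glucose transport 6 were lower in brain and 2 higher, and under median-of-ratios scaling 11 were lower and 1 higher. Pklr, the pyruvate kinase of liver and red cells, stood at 3.22 to 5.30 TPM in brain and at 257 and 318 TPM in liver (-5.86). Slc2a2 (-3.54), of the hepatocyte, and Hk1 (-2.16) were lower too. Hk1, often named as the hexokinase of brain, stood at 22.2 to 32.5 TPM in brain and at 108 and 130 TPM in liver. The general isozyme Pkm was not called (0.67), nor was Eno1 (-0.76).

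Of 10 adhesion and epithelial genes 3 were higher and 4 lower in brain. The intermediate filament gene Vim of progenitors and mesenchyme was higher in brain (2.48), at 1507 to 1778 TPM against 292 and 296 TPM, and the neural adhesion gene Ncam1 differed by 2.24. The epithelial keratins Krt18 (-3.08) and Krt8 (-2.70) were lower. Of 6 immediate early genes tested Jun was higher (1.2) and Junb (-1.88) and Egr1 (-1.24) lower. The call of Jun was lost under median-of-ratios scaling and under quantile normalization. Of 9 mitochondrially encoded genes only mt-Co3 was called (-1.27), with values that scattered within tissues, at 6691 and 1836 TPM in hindbrain and 6348 and 3919 TPM in liver.

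Each region was also set against the same 2 liver libraries, so these 3 comparisons are not independent. Forebrain was higher for 3271 genes (17.5%) and lower for 1744 (9.35%), which is 26.9% called. Midbrain was higher for 3958 (21.2%) and lower for 1693 (9.08%), or 30.3%, and hindbrain for 4566 (24.5%) and 1552 (8.32%), or 32.8%. Median-of-ratios scaling gave 2379 and 2202, 2627 and 2393, and 2913 and 2490. Differences among regions were called for 1289 genes (6.91%), and for 757 of the 3896 genes higher in brain (19.4%) and 81 of the 1612 lower (5.02%). The count among regions was 1188 without forebrain replicate 1 and 1599 without forebrain replicate 2.

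Among the genes higher in brain, those with the widest range of region means were each held by 1 or 2 regions. Oc90, an otoconial protein gene of the inner ear, stood at 102 and 93.3 TPM in hindbrain and at 0.04 TPM or less in all other libraries (range 6.6). Nr2e1, which maintains forebrain progenitors, stood at 80.5 and 91.8 TPM in forebrain, 27.8 and 28.7 in midbrain, and 0.18 and 0.08 in hindbrain (6.27). Cnpy1, of the midbrain and hindbrain border, stood at 2.78 and 2.28 TPM in forebrain, 184 and 197 in midbrain, and 90.1 and 72.2 in hindbrain (5.77). Hoxd3 (6.19) and Eomes (5.53) completed the 5. All 10 forebrain and all 10 midbrain regional factors were called higher in brain on the average over regions. Otx2, of forebrain and midbrain, stood at 81.0 and 78.5 TPM in forebrain, 259 and 273 in midbrain, 15.8 and 16.7 in hindbrain, and 0.03 and 0.01 in liver (6.14). Tal2, a selector of midbrain GABA neurons, stood at 115 and 110 TPM in midbrain and at 1.47 to 7.98 TPM in the other regions (3.66). Emx2 (3.55) and Dlx1 (2.98) were highest in forebrain, and Pou4f1 (3.60), of sensory and midbrain neurons, in hindbrain and midbrain.

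Hox genes give cells their position along the body axis. For 13 of 25 tested, liver lay below hindbrain and above forebrain and midbrain by the call. Hoxb3 stood at 0.07 and 0.03 TPM in forebrain, 0.01 and 0.03 in midbrain, 82.8 and 90.3 in hindbrain, and 8.69 and 8.72 in liver. The difference from liver was -3.21 in forebrain, -3.25 in midbrain and 3.17 in hindbrain, so that the average over regions of -1.1 described none of them. Hoxb2 gave -3.00, -3.05 and 2.42, Hoxa2 -2.11, -2.11 and 3.49, Hoxc4 -2.28, -2.31 and 2.62, and Hoxa3 -2.36, -2.35 and 2.29. Of 25 Hox genes tested 18 were called higher than liver in hindbrain, 18 lower in forebrain and 18 lower in midbrain, and none higher in forebrain or midbrain. In all, 29 genes (0.155%) were called higher than liver in 1 region and lower in another, and 13 of them were Hox genes, all higher in hindbrain and lower in forebrain and midbrain. Of the 13 genes of the hindbrain and Hox list 3 were higher in brain on the average over regions, close to the 20.9% of all genes. Among them were Gbx2 (2.13), an anterior hindbrain factor, and Hoxd3 (1.17). Lower calls numbered 4 of 13, above the 8.64% of all genes.

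The same comparison was made at the end of gestation. It averaged E16.5 and birth (P0), with 12 brain and 4 liver libraries, among them 4 brain libraries whose stage differs between the column name and the sample title and which were kept at the stage of the column name. There 9315 genes (49.9%) were higher in brain and 2135 (11.4%) lower, or 61.4% called, with a median over all genes of 1.0. This excess depended on the scaling, since median-of-ratios scaling gave 4573 higher and 4724 lower. Quantile normalization gave 4529 and 4435. The change from that difference to the one at E11.5 was itself tested and called for 8635 genes (46.3%), 1455 (7.8%) with a higher and 7180 (38.5%) with a lower value at E11.5. That split depended on the scaling, with 3358 and 3242 under median-of-ratios scaling. In count, 15 genes (0.0804%) were called higher in brain at E11.5 and lower later, and 74 (0.397%) lower at E11.5 and higher later. With median-of-ratios scaling 26 and 38 genes crossed, and with quantile normalization 22 and 40.

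Neuronal genes lay further from liver later and neurogenic genes nearer to it. For 18 of 20 young neuron genes and 14 of 17 transmitter and synapse genes the difference was smaller at E11.5, against 38.5% of all genes, and it was larger for 2 young neuron genes. Gap43, of growth cones, stood at 108 to 365 TPM in brain at E11.5 and at 24.0 and 23.8 TPM in liver (3.13), against means of 1498 and 1.99 TPM later (8.97). The change of -5.84 was among the lowest. For 8 of 13 neurogenic commitment genes the difference was larger at E11.5, against 7.8% of all genes, and for 1 it was smaller. Neurog1 went from 4.76 to 0.71, with a later brain mean of 0.75 TPM, and Robo3 from 5.49 to 2.13.

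Genes of the hepatocyte lay further from brain later as well. The brain minus liver value was higher at E11.5 than later for 15 of 20 plasma protein genes, against 7.8% of all genes. The same held for 17 of 18 mature hepatocyte genes. For 2 plasma protein genes the value was lower, against 38.5% of all genes. Apoh went from -3.44 to -10.52, with a later liver mean of 2455 TPM, Gc from -3.73 to -10.09 (1667 TPM) and Itih4 from -2.61 to -8.79 (552 TPM). Afp stood at -11.88 and -12.53. For 14 of 27 erythroid genes the value was higher at E11.5, and for 5 it was lower, against the same shares of 7.8% and 38.5%. Slc4a1 went from -2.41 to -8.61, with later means of 1.085 TPM in brain and 904 TPM in liver.

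**Figure D5:**
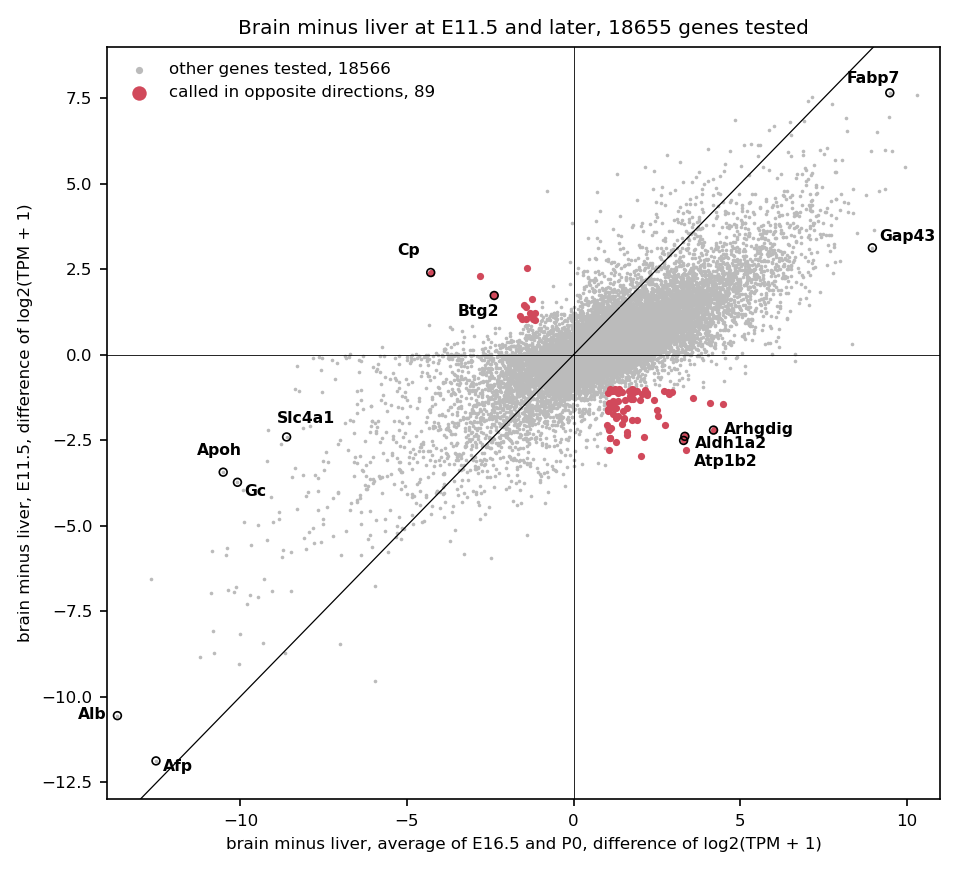
Brain minus liver on the log2(TPM + 1) scale averaged over E16.5 and P0 (x axis) and at E11.5 (y axis), 1 point for each of 18655 genes tested, with the 89 genes called in opposite directions (0.477%) in red. Atp1b2 and Arhgdig are lower in brain at E11.5 and higher later, Cp and Btg2 the reverse, and Gap43, Apoh and Slc4a1 lie far from the line of equality on the side of a smaller difference at E11.5.

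Among the genes that crossed over was Atp1b2, a subunit of the sodium pump known from glia. At E11.5 it stood at 9.77 and 11.4 TPM in forebrain, 11.7 and 12.7 in midbrain, 11.9 and 13.7 in hindbrain, and 70.7 and 72.9 in liver (-2.51 ± 0.11). Later the means were 152 TPM in brain and 12.7 TPM in liver (3.30). Pde1a (-2.42 and 2.13), Aldh1a2, a retinoic acid synthesising enzyme (-2.39 and 3.34), Cpne7 (-2.79 and 3.37) and Arhgdig (-2.21 and 4.20) crossed in the same sense. In the other sense Cp went from 2.4 to -4.29, with later means of 11.3 TPM in brain and 287 TPM in liver. Btg2, an antiproliferative gene of committed neural progenitors, went from 1.73 to -2.38. Cyp39a1, an oxysterol hydroxylase gene, went from 2.31 to -2.82, Abcd2, a peroxisomal transporter gene, from 2.54 to -1.40 and Slc45a3 from 1.38 to -1.42.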

How the data were processed

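The deposited table holds TPM values the authors computed for 43346 genes in 61 libraries. Per the labels' protocols 4 µg of RNA per library went into a stranded mRNA kit. Per the submitters' processing notes STAR 2.4.0k, RSEM 1.2.23 and build mm10 were used; which step each served is not given in the sources used here, nor is the annotation. Gene IDs matched GENCODE M21 for 42462 genes, and 884 did not match. TPM were taken as log2(TPM + 1), and the 18655 genes that reached 1 TPM in 2 or more libraries were fitted with limma 3.58.1 in R 4.3.3 with 1 mean for each of 31 tissue and stage groups (30 residual degrees of freedom, trended prior). A call needed a Benjamini-Hochberg adjusted p under 0.05 and a difference of at least 1. The scripts were tested on simulated data.

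Members and 35 gene lists were chosen with earlier results of these data known. By rule, the text names, per list, the 4 called genes that differed most (or fewer) and at most 2 uncalled ones of high level, all haemoglobin and DNA methylation genes, the 10 highest and 10 lowest called protein-coding genes at 5 TPM or more without overlap, and the genes leading the regional and stage comparisons. Others, such as Nefl, Ttr, Foxa2 and Pecam1, were named after their values were seen. Alternatives were other scalings (median of ratios, quantile, haemoglobin genes removed), pseudocounts, filters, tests and libraries left out. Some genes that the rule names are not reported here. Depth is unknown from TPM.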

Additional observations from a re-analysis of the deposited data

Results flagged for a closer look

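For 8635 genes the difference between brain and liver itself differed between E11.5 and the average of E16.5 and P0 (limma, adjusted p under 0.05 and a change of at least 1). Values below are the E11.5 difference minus the later one on the log2 scale. The change was positive for Apoh (7.08), Cp (6.69), Gc (6.36), Slc4a1 (6.21), Itih4 (6.17), Cyp39a1 (5.13), Btg2 (4.11), Abcd2 (3.95) and Slc45a3 (2.80). It was negative for Arhgdig (-6.41), Cpne7 (-6.15), Adap1 (-5.94), Gap43 (-5.84), Atp1b2 (-5.81), Aldh1a2 (-5.73) and Pde1a (-4.55). Brain regions differed among themselves for Hoxb3 (range of region means 6.42), Hoxa2 (5.602), Hoxb2 (5.47), Hoxc4 (4.93) and Hoxa3 (4.65). Each of these was higher than liver in hindbrain and lower in forebrain and midbrain.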

How the results depend on the processing

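Of 231 gene values followed, 182 kept direction and call under every alternative run. The 3896 genes higher in brain became 2500 under quantile normalization, 2603 under median-of-ratios scaling, 5386 with a pseudocount of 0.1, and 3729 to 4073 with 1 library left out. The 1289 genes differing among regions became 2453 with a pseudocount of 0.1, and 1188 and 1599 without forebrain replicate 1 or 2. Differences of replicate 1 from replicate 2 correlated at 0.028 to 0.164 between tissues. Such values cannot show whether equal replicate numbers share embryos or a batch. With the replicate number as a block, 3898 genes were higher and 1618 lower. These uncalled genes changed sign. Under quantile normalization (second value) and median-of-ratios scaling (first value) they were -0.15 and -0.268 for Bmp4, -0.343 and -0.356 for Cdh5, -0.371 and -0.165 for Dnmt1, -0.239 and -0.285 for Ier2, -0.091 and -0.104 for Itga6, and -0.048 and -0.162 for Vpreb1. Under median-of-ratios scaling alone they were -0.189 for Col1a2, -0.133 for Mbd3, -0.184 for mt-Co1, -0.168 for mt-Cytb and -0.255 for Uhrf1, and under quantile normalization alone -0.084 for Epcam. With haemoglobin genes removed they were -0.021 for Cdh5 and -0.04 for Dnmt1. With 1 library left out the ranges were -0.325 to 0.044 for Acta1, -0.079 to 0.16 for Cdh5, -0.144 to 0.191 for Dnmt1, -0.023 to 0.305 for Uhrf1 and -0.01 to 0.275 for Vpreb1. The cause was not tested. Depth is unknown, so precision of low genes rests on 2 libraries per tissue.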
